A study of Mus musculus with 12 samples.

Results

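The nucleolar ribosome biogenesis genes described here are 51 genes that encode RNA polymerase I subunits and their partners, small nucleolar ribonucleoproteins (snoRNPs), and the processing and assembly factors of both ribosomal subunits. They were chosen by role and found by symbol, by a rule that uses no measured value, although the list was drawn up with earlier results of these data known. All 51 were among the 20661 genes of the count files, and all 51 had enough reads to be tested in every comparison.

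Ribosomes are built in the nucleolus, where RNA polymerase I transcribes a long precursor of the ribosomal RNAs (rRNAs). snoRNPs modify that precursor, and the small subunit processome and the assembly factors of the large subunit fold it, cut it and load it with ribosomal proteins. ARF is a nucleolar tumor suppressor encoded by Cdkn2a that binds nucleophosmin (Npm1), and these factors are typically abundant in proliferating fibroblasts.

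RNA and ribosome footprints were measured in mouse embryonic fibroblasts (MEFs) at passage 4 in 3 groups, with 2 replicates per group and assay and 12 libraries in all. WT MEFs, labelled as strain C57BL/6J (B6129SF2/J in the study's methods), carried either a lentiviral scrambled hairpin (WT-shSCR) or a hairpin against ARF (WT-shARF). Arf-/- MEFs of strain B6.129X1-Cdkn2atm1Cjs/KaiJ, in which a neo cassette takes the place of the ARF-specific first exon of Cdkn2a, carried the scrambled hairpin (Arf-/--shSCR), so every group was transduced and, by the study's methods, selected with puromycin. Changes after knockout are those of Arf-/--shSCR against WT-shSCR. The Arf-/- MEFs were separate cells of another strain than the WT MEFs, so genotype, strain and cell isolate cannot be told apart. Footprints are the mRNA fragments shielded by ribosomes, and translation efficiency (TE) is the ratio of footprints to RNA of a gene. Whether the replicates came from separate cultures or embryos was not stated, so the tests measure the spread between these libraries.

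Reads on coding sequences summed to 1578627 to 3989908 per RNAseq library and 2544319 to 5157572 per ribosome profiling library. Levels are given as CPM, counts scaled to library size with TMM factors within an assay. Cdkn2a RNA stood at 44.8 and 41.4 CPM in the WT-shSCR replicates and at 27.7 and 32.4 CPM in Arf-/--shSCR. The libraries labelled WT-shARF held 638 and 678 CPM of it. Cdkn2a footprints were 92.5 and 65.1 CPM in WT-shSCR, 525 and 744 CPM under the WT-shARF label and 40.4 and 35.0 CPM in Arf-/--shSCR. Its fall after knockout was called in footprints (adjusted p = 4.67e-05, edgeR) and not in RNA (adjusted p = 0.197, edgeR). Counts per gene do not separate ARF from INK4A, the other product of Cdkn2a, so they do not give the ARF transcript itself. At the level of the gene the WT-shARF levels go against the label of a knockdown, and each result of that group is given by its label only. None of 8 fibroblast markers was at 0 in both libraries of a group, and their summed RNA was 21346 to 24462 CPM in WT-shSCR, 22079 to 22443 CPM under the WT-shARF label and 16340 to 17440 CPM in Arf-/--shSCR. In the same order, the summed RNA of 12 proliferation markers was 1912 to 1985, 3083 to 3122 and 3264 to 3501 CPM. The summed RNA of 10 macrophage markers, none of them at 0, was 628 to 631, 228 to 312 and 55.7 to 94.7 CPM, and that of 7 mesothelial markers 94.9 to 96.1, 56.3 to 67.5 and 163 to 185 CPM. After knockout, macrophage markers fell in RNA (8 of 10) and footprints (10 of 10), and mesothelial markers rose in RNA (4 of 7) and footprints (6 of 7). Only 2 of the 7 mesothelial markers had enough reads to be tested under the WT-shARF label. Upk3b and Lrrn4 had 0 footprints in both WT-shSCR libraries. The markers not tested under that label passed the read filter after knockout only through the Arf-/--shSCR libraries, so the mesothelial counts are a description only. Of the fibroblast markers, footprints of Col1a1, Col1a2 and Fn1 fell and those of Col3a1 and Dcn rose. Under the WT-shARF label 5 of 10 macrophage markers fell in RNA and 6 of 10 in footprints. The part of these markers in the results below was not tested, and in such bulk libraries a change in cell makeup and a change of RNA per cell cannot be told apart.

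In WT-shSCR MEFs the members spanned a wide range of levels. The median RNA level was 34.0 CPM per kb of coding sequence, from 7.15 for Ddx10, a helicase of the small subunit pathway, to 176 for Nop10, the smallest H/ACA snoRNP protein. For footprints the median was 47.6 CPM per kb, from 7.16 for Rrp1b to 457 for Ncl (nucleolin), a main RNA-binding protein of the nucleolus. Together the 51 genes took 0.419% and 0.463% of the RNA reads and 0.536% and 0.562% of the footprint reads of the WT-shSCR replicates. These shares were 0.564% and 0.595% for RNA and 0.680% and 0.729% for footprints in the libraries labelled WT-shARF. In Arf-/--shSCR they were 0.620% and 0.617% for RNA and 0.801% and 0.824% for footprints, so both replicates of each group lay above both WT-shSCR replicates in both assays.

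After Arf knockout, ribosome footprints of 31 of the 51 members rose and none fell, where 9.57% of all genes tested were called higher and 8.95% lower (edgeR's quasi-likelihood test, Benjamini-Hochberg adjusted p under 0.05 over all genes). The median log2 fold change of the members was 0.49, against -0.00 for all genes tested, and 50 of 51 were above 0. RNA of 9 members rose and none fell, against 3.94% of all genes called higher and 3.99% lower, with a median of 0.38 and 49 members above 0. Of the 9 members with higher RNA, 8 also had higher footprints, which is 8 of the 31 with higher footprints. The exception was Polr1b. RNA changes had larger standard errors, with a median of 0.21 against 0.15 for footprints. A member called in footprints only may thus also have changed in RNA. Both knockout libraries lay above both WT-shSCR libraries for 45 members in footprints, as for 30.6% of all genes, and for 36 members in RNA, as for 26.3%. The other direction held for 0 members in footprints (26.9% of all genes) and for 1 in RNA (25.3%).

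**Figure D1:**
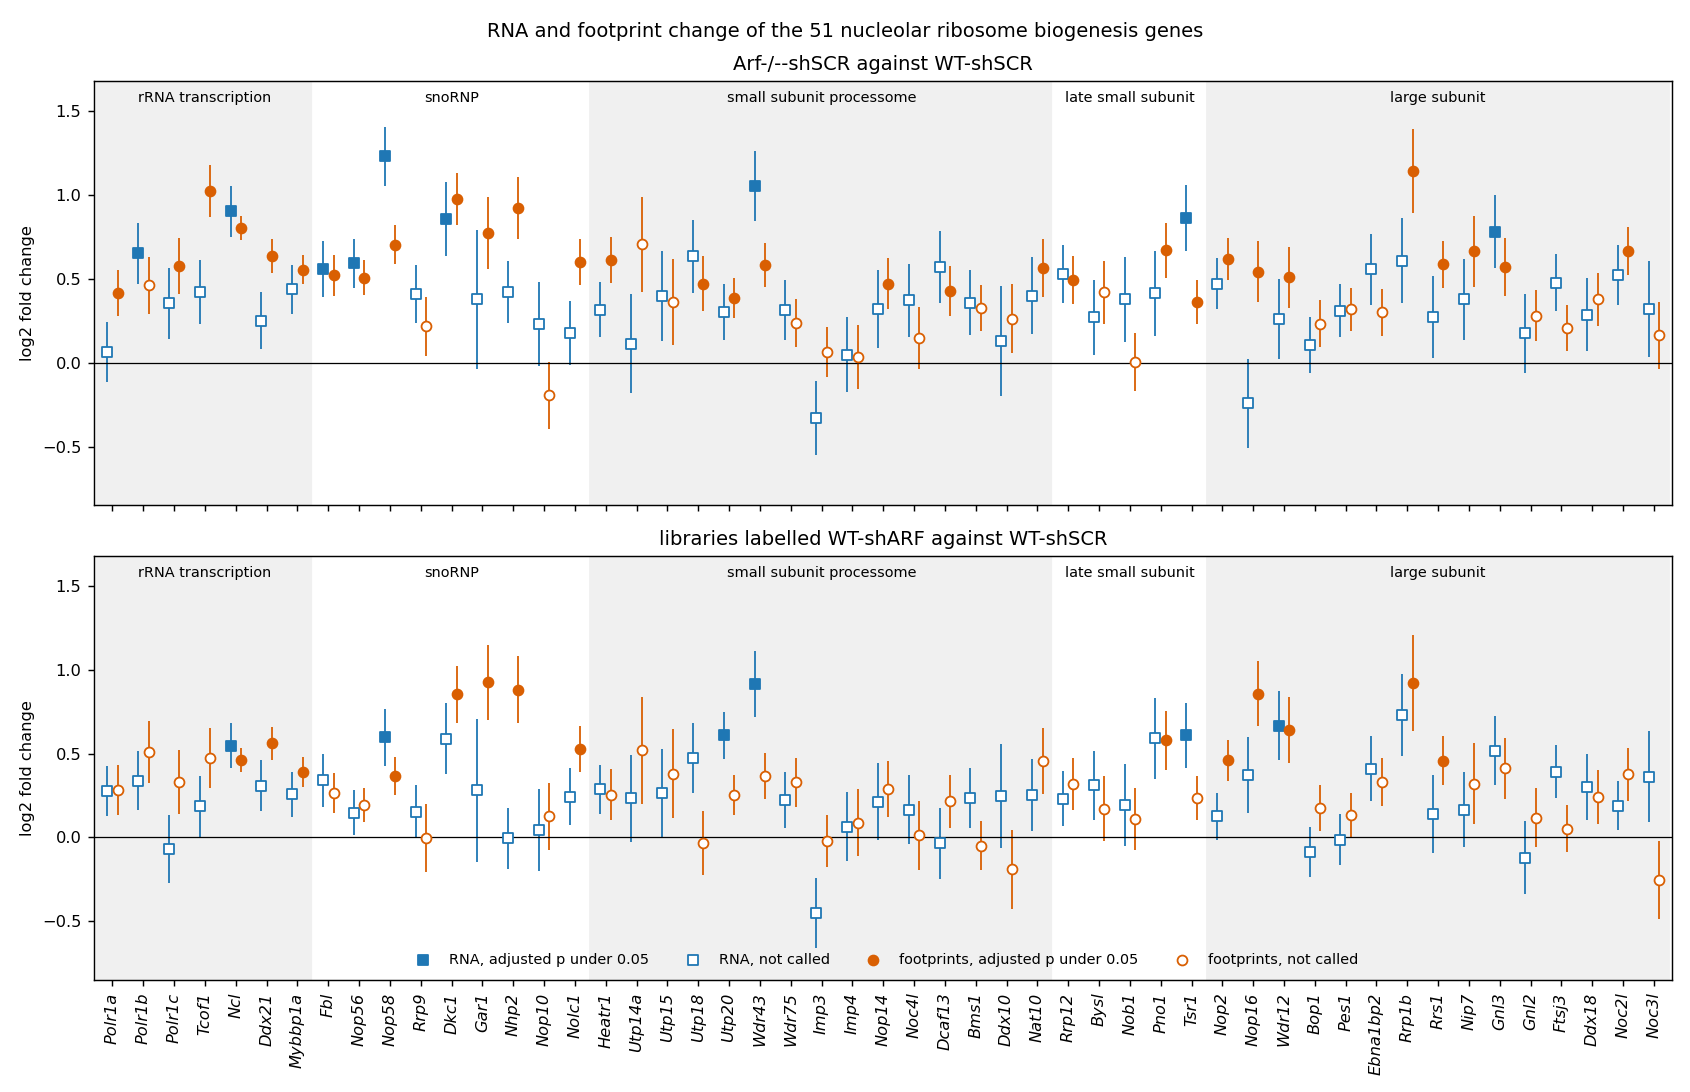
Log2 fold change of RNA (squares) and footprints (circles) for each of the 51 members, grouped by role, in Arf-/--shSCR (top) and in the libraries labelled WT-shARF (bottom), each against WT-shSCR. Bars are standard errors and filled symbols have an adjusted p under 0.05, which 31 footprint values and 9 RNA values reach at the top and 14 and 6 at the bottom.

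Among the 7 genes of rRNA transcription, footprints of 6 rose after knockout and RNA of 2 rose. Ncl RNA was 233 and 241 CPM in WT-shSCR and 400.4 and 494 CPM in Arf-/--shSCR, and its footprints went from 937 and 1003 CPM to 1709 and 1761 CPM. The groups did not overlap in either assay, and both changes passed the test (log2 fold change of RNA 0.90, SE 0.15, adjusted p = 0.00084, and of footprints 0.81, SE 0.07, adjusted p = 4.95e-10, edgeR). Footprints of Tcof1, whose product treacle supports RNA polymerase I and is affected in Treacher Collins syndrome, were 54.5 and 52.7 CPM in WT-shSCR and 120 and 104 CPM in Arf-/--shSCR, a 2.03-fold rise (adjusted p = 9.65e-06). Its RNA went from 67.1 and 73.9 CPM to 92.4 and 97.7 CPM, which did not pass the test (log2 fold change 0.42, adjusted p = 0.203). The subunits of RNA polymerase I were called in different assays, but TE was called for neither Polr1a nor Polr1b. Their log2 TE changes after knockout had intervals of 2 SE from -0.12 to 0.76 for Polr1a and from -0.71 to 0.26 for Polr1b. A difference between the 2 genes was not tested. RNA of Polr1b, the second largest subunit, rose from 76.5 and 77.1 CPM to 119 and 125 CPM (log2 fold change 0.65, adjusted p = 0.0314), with a footprint value of 0.46 (adjusted p = 0.0599). Polr1a, the largest subunit, had overlapping RNA levels of 130 and 136 CPM and 160 and 120 CPM while its footprints rose from 95.8 and 103 CPM to 136 and 135 CPM (log2 fold change 0.42, adjusted p = 0.0307). Footprints of Polr1c, a subunit shared with RNA polymerase III, of Ddx21, a nucleolar RNA helicase, and of Mybbp1a, a nucleolar protein of rRNA synthesis, rose by 0.58, 0.64 and 0.56 on the log2 scale.

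RNA of 4 of the 9 snoRNP genes rose after knockout and footprints of 7 rose. Nop58, a core protein of the box C/D snoRNPs that guide rRNA methylation, had RNA levels of 79.5 and 79.7 CPM in WT-shSCR and 204 and 173 CPM in Arf-/--shSCR. Its RNA rise of 1.23 on the log2 scale (SE 0.18, adjusted p = 0.000154, edgeR) was the largest of the members, while its footprints rose by 0.70 (165 and 200.2 CPM to 289 and 320.0 CPM, adjusted p = 3.21e-05). Of the other box C/D core proteins, Fbl and Nop56 are members and rose in both assays. Fbl (fibrillarin), the methyltransferase, rose by 0.56 in RNA and 0.52 in footprints, and Nop56 by 0.59 and 0.51 on the same scale. Nop56 RNA was 251 and 235 CPM in WT-shSCR and 376 and 364 CPM in Arf-/--shSCR. Rrp9, a protein of the U3 snoRNP, was not called in either assay.

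The H/ACA snoRNPs, which guide pseudouridylation of rRNA, have 4 core proteins, and footprints of 3 of them rose. Dkc1 (dyskerin), the pseudouridine synthase, went from 52.6 and 56.2 CPM of footprints to 105 and 114 CPM (log2 fold change 0.98, SE 0.16, adjusted p = 1.73e-05), with RNA from 35.8 and 43.3 CPM to 74.6 and 68.8 CPM (0.86, adjusted p = 0.0195). Nhp2 footprints rose from 34.4 and 39.9 CPM to 65.5 and 78.4 CPM (0.92, adjusted p = 0.000435), and those of Gar1 from 26.3 and 26.7 CPM to 44.2 and 48.6 CPM (0.77, adjusted p = 0.00944). The fourth, Nop10, was not called, and a difference between it and the other 3 was not tested. Its footprints were 44.2 and 51.9 CPM in WT-shSCR and 35.5 and 50.2 CPM in Arf-/--shSCR, with overlapping groups and a log2 fold change of -0.20 (SE 0.20), the only negative footprint value among the 51. Nop10 also has the shortest coding sequence of the members, 192 nt. Footprints of Nolc1, a nucleolar chaperone of snoRNPs, rose by 0.60.

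**Figure D2:**
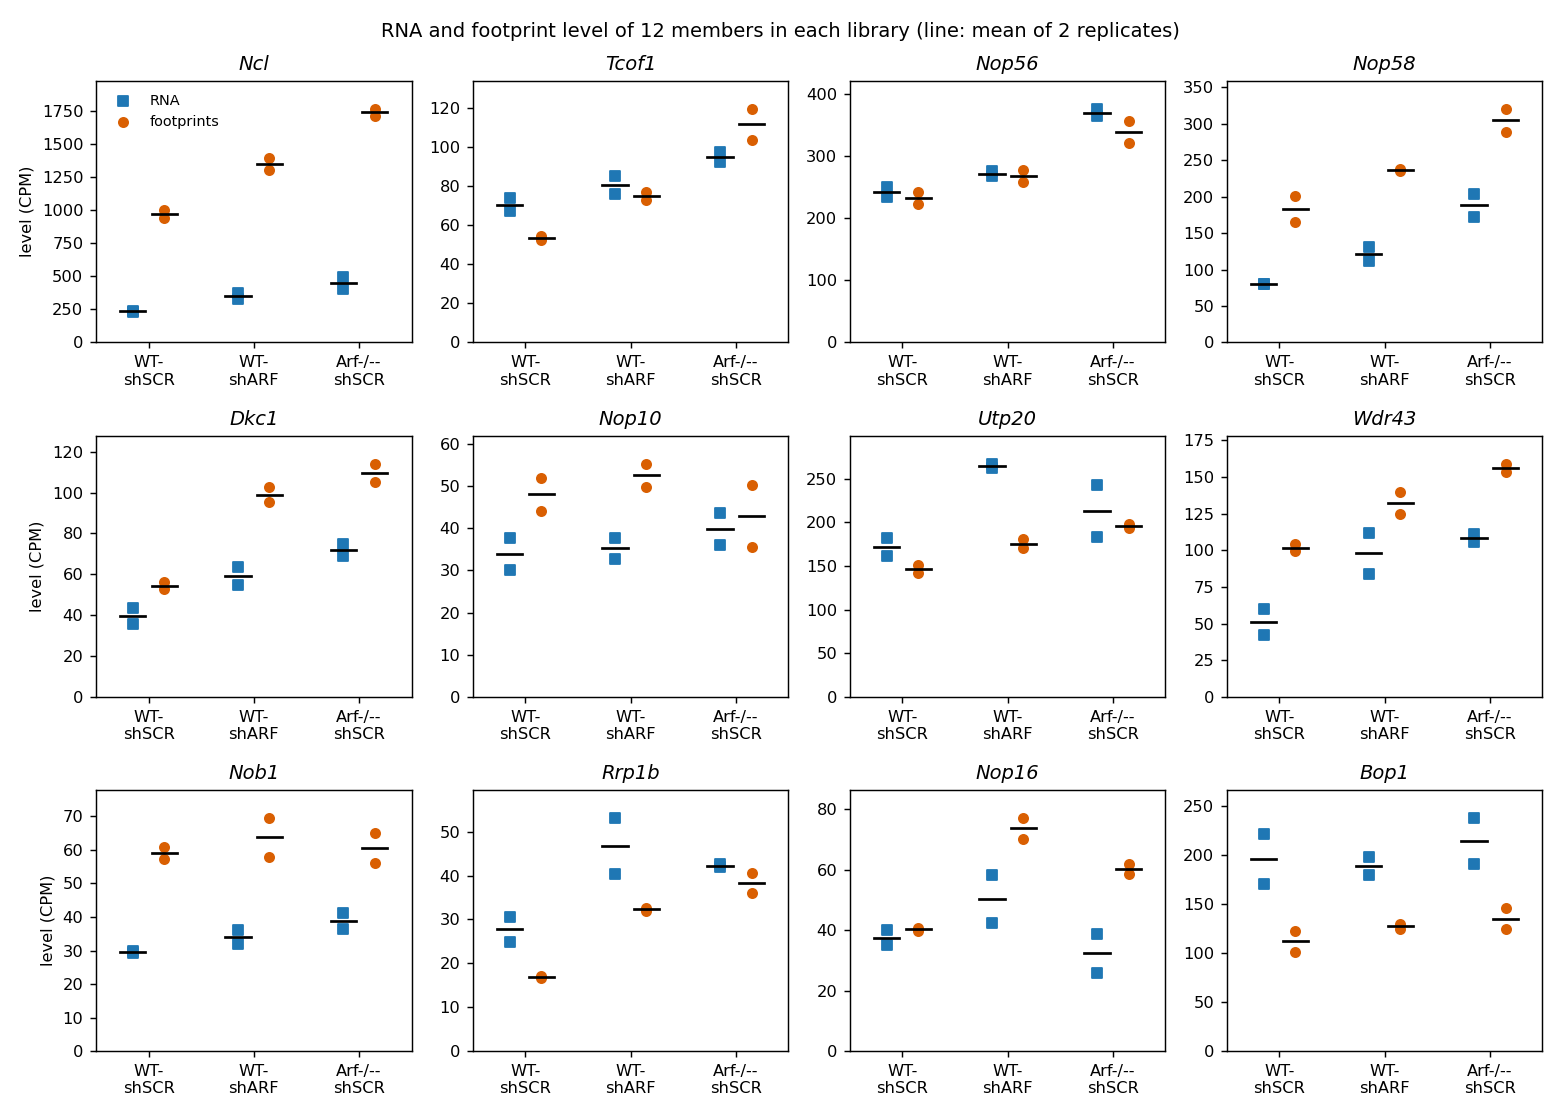
RNA (squares) and footprint (circles) levels in CPM of 12 members in each library of the 3 groups, with lines at the mean of the 2 replicates and every axis starting at 0. Ncl footprints lie between 937 and 1761 CPM and climb from group to group, whereas Nop10 and Nob1 footprints overlap between WT-shSCR and Arf-/--shSCR.

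Of the 15 proteins of the small subunit processome, the large particle that forms on the growing rRNA precursor, 7 had higher footprints after knockout and 1 had higher RNA. Heatr1, which joins early, went from 87.0 and 98.0 CPM of footprints to 141 and 148 CPM (log2 fold change 0.61, SE 0.14, adjusted p = 0.00156), with RNA from 151 and 150.4 CPM to 206 and 173 CPM that was not called (0.32, adjusted p = 0.258). Utp20, the longest member with 8390 coding nt, had footprints of 142 and 151 CPM in WT-shSCR and 193 and 198 CPM in Arf-/--shSCR (0.39, adjusted p = 0.0239). Wdr43 was the 1 of the 15 called in RNA. It rose from 59.9 and 42.1 CPM to 111 and 106 CPM, by 1.05 on the log2 scale (SE 0.21, adjusted p = 0.00319), and its footprints rose by 0.58. Utp18, Nop14, Dcaf13 and Nat10, an RNA acetyltransferase, gained footprints by 0.43 to 0.57. The U3-associated proteins Imp3 and Imp4 were not called in either assay, with footprint log2 fold changes of 0.06 and 0.04 and RNA values of -0.33 and 0.05. Imp3 RNA was 54.6 and 66.3 CPM in WT-shSCR and 51.7 and 44.5 CPM in Arf-/--shSCR, so it was the 1 member whose knockout libraries both lay below both control libraries. Utp14a had the largest footprint value among those not called, 0.71 (SE 0.28).

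Of the 5 late factors of the small subunit, footprints of 3 rose and RNA of 1 rose. Footprints of Pno1, which binds near the end of the nascent small subunit rRNA, rose by 0.67 (66.2 and 50.3 CPM to 98.5 and 92.3 CPM, adjusted p = 0.00303), and those of Rrp12 and Tsr1 by 0.49 and 0.36. Tsr1 RNA rose by more, 0.86 on the log2 scale (63.7 and 91.8 CPM to 139 and 143 CPM, adjusted p = 0.00934). Nob1, the nuclease that cuts the end of the small subunit rRNA and acts with Pno1, had 57.1 and 60.8 CPM of footprints in WT-shSCR and 56.1 and 65.0 CPM in Arf-/--shSCR, a log2 fold change of 0.00 (SE 0.17) with overlapping groups. Bysl was not called (0.42, adjusted p = 0.119).

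Of the 15 large subunit factors, 8 had higher footprints and 1, Gnl3, had higher RNA. Rrp1b, a nucleolar protein of large subunit assembly, had the largest footprint rise of all members, from 17.2 and 16.7 CPM to 36.1 and 40.6 CPM, which is 2.21-fold (log2 fold change 1.14, SE 0.25, adjusted p = 0.00112). Footprints of Noc2l, of Nop2, an rRNA methyltransferase, of Nip7 and of Rrs1 rose by 0.59 to 0.67. Gnl3 (nucleostemin), a nucleolar GTPase, rose in RNA by 0.78 (adjusted p = 0.0328) and in footprints by 0.57 (adjusted p = 0.0168). Its WT-shSCR footprints were 52.6 and 81.7 CPM, so this value rests on replicates that lay far apart. The same holds for Nip7, with 42.9 and 25.9 CPM of footprints in WT-shSCR. Pes1, Bop1 and Wdr12 form 1 complex, and of these only Wdr12 was called in footprints (0.51, adjusted p = 0.0478), with 0.32 (SE 0.13) for Pes1 and 0.23 (SE 0.14) for Bop1. A difference between the 3 was not tested. Nop16 had footprints of 39.9 and 40.7 CPM in WT-shSCR and 61.8 and 58.5 CPM in Arf-/--shSCR (0.54, adjusted p = 0.0359), while its RNA was at 39.9 and 35.0 CPM and 25.8 and 38.9 CPM.

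The footprint count rested on the control libraries. Without replicate 1 or replicate 2 of the WT-shSCR footprints, edgeR called 0 members and no gene at all, although 32 and 31 members had an unadjusted p under 0.05, DESeq2 called 13 and 12, and a fit of all groups called 22 in both cases. Without replicate 1 or 2 of the Arf-/--shSCR footprints 20 and 17 members were called, and the median of the members stayed between 0.44 and 0.54 in these 4 fits. For RNA, 2 and 3 members were called without WT-shSCR replicates 1 and 2, and Nop58 was the 1 member called with DESeq2, under each other scaling, filter and fit tried, and without any one library. DESeq2 called 20 members in footprints and 5 in RNA.

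Outside the 51, a list of 94 other ribosome biogenesis genes was examined. After knockout, 9.57% of all genes tested were called higher and 8.95% lower in footprints, and 3.94% and 3.99% in RNA. Footprints of 27 of the 94 genes rose and none fell, with a median log2 fold change of 0.37. RNA of 7 of the 94 rose and none fell, with a median of 0.36. Npm1, the ARF-binding nucleolar chaperone, was among them, with RNA of 411 and 398 CPM in WT-shSCR and 633 and 720 CPM in Arf-/--shSCR (log2 fold change 0.73, adjusted p = 0.00345, edgeR) and a footprint rise of 0.74. Myc, a transcription factor known to drive many of these genes, was not called, with an RNA log2 fold change of -0.08 (SE 0.29) and a footprint value of 0.35 (SE 0.15, adjusted p = 0.0949). The 12 proliferation markers rose beside these genes, 9 of them in RNA and all 12 in footprints, with a median RNA log2 fold change of 0.72. The part of proliferation in the members' rise was not tested.

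The bases around the start site of a gene, 250 before and 50 after, were available from RefSeq (GRCm38.p6, the build of mm10) for 44 of the 51 members. Bop1, Dcaf13, Fbl, Gnl2, Rrp12, Rrs1 and Tcof1 were not in that table. The letters CACGTG, the canonical E-box that Myc and other factors can bind and which reads the same on both strands, were present in 9 of the 44 (20.5%). They were present in 14 of 78 other ribosome biogenesis genes (17.9%), in 6 of 63 ribosomal protein genes (9.52%) and in 8.09% of 27025 genes. These 27025 are all genes with such bases, whether or not they had enough reads to be tested. No share over the tested genes alone was taken. Of the 26 members with a promoter and higher footprints after knockout 7 held it (26.9%), and of the 18 not called 2, Imp4 and Pes1 (11.1%), a difference that was not tested. These stretches of at most 30 bases are shown so that the letters around each match can be compared, with the E-box in capitals and the strand of the gene given.

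Mybbp1a, plus strand, chr11:72441355-72441376: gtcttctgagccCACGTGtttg
Utp18, minus strand, chr11:93885769-93885798: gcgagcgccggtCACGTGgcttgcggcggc
Utp20, minus strand, chr10:88826765-88826789: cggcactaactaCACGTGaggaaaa
Wdr43, plus strand, chr17:71616220-71616249: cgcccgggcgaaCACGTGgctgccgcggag
Pno1, minus strand, chr11:17211540-17211564: tgtacaaccacgCACGTGttcctct
Tsr1, plus strand, chr11:74898092-74898121: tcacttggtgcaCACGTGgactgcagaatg
Nop2, plus strand, chr6:125131811-125131840: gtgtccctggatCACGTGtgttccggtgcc
Imp4, plus strand, chr1:34439696-34439725: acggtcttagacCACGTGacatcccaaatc
Pes1, plus strand, chr11:3963965-3963994: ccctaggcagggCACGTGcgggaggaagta

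Counted from the start site, the E-box began 121, 60 and 20 bases before it in Imp4, Nop2 and Utp18, and at base 3 to 41 of the transcript in the other 6. CGGAAG or its reverse complement CTTCCG was more widespread, in 26 of the 44 members (59.1%) and 55 of 78 other ribosome biogenesis genes (70.5%). Either was present in 43 of 63 ribosomal protein genes (68.3%) and in 18.8% of all genes. All genes in this paragraph are the same 27025, tested or not. A match describes letters only and shows no binding. A run of a C and 4 further pyrimidines at the start site, the form of a 5′-terminal oligopyrimidine (TOP) start, was found in 0 of the 44 members, in 13 of 63 ribosomal protein genes (20.6%) and in 3.01% of all genes. Most ribosomal protein mRNAs are known to carry a TOP start, so a check at annotated start sites misses most known cases, and its 0 does not show that the members lack one. The annotated starts of Ncl and Nop58 are given as examples, with the first 5 transcribed bases in capitals.

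Ncl, minus strand, chr1:86359441-86359470: ggctccggggacggaCGCGAgctctggttg
Nop58, plus strand, chr1:59684991-59685020: tatttgctgctccacGAGGAgaggtgtgga

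In the libraries labelled WT-shARF, footprints of 14 members rose and none fell, against 5.63% of all genes called higher and 5.5% lower. The median log2 fold change was 0.32, against -0.00 over all genes, and 45 of 51 were above 0. RNA of 6 members rose and none fell, against 3.11% of all genes called higher and 4.17% lower, with a median of 0.25. Both libraries lay above both WT-shSCR libraries for 35 members in footprints, as for 26.4% of all genes, and for 32 in RNA, as for 25.6%. This comparison shares its WT-shSCR libraries with the knockout comparison, so the values are given side by side and not as a repeat.

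The same 3 H/ACA proteins as above were called in footprints. Footprints of Gar1 were 50.8 and 50.6 CPM, those of Nhp2 74.3 and 63.9 CPM and those of Dkc1 103 and 95.3 CPM under the WT-shARF label, with rises of 0.92, 0.88 and 0.85 on the log2 scale (adjusted p = 0.00524, 0.00289 and 0.000608, edgeR). None of the 3 passed the test in RNA. Dkc1 RNA was 54.7 and 63.7 CPM against 35.8 and 43.3 CPM in WT-shSCR. Its log2 fold change had an interval of 2 SE from 0.17 to 1.01. Nhp2 RNA was 72.2 and 87.0 CPM against 79.5 and 79.7 CPM in WT-shSCR. Gar1 RNA was low, at 9.56 and 19.3 CPM against 7.91 and 17.8 CPM, with an interval from -0.57 to 1.13. An RNA rise of Dkc1 or Gar1 may thus have gone uncalled. Nop10 was not called, with 49.7 and 55.3 CPM of footprints and a log2 fold change of 0.13 (SE 0.20).

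Ncl RNA was 324 and 374 CPM and its footprints 1299 and 1388 CPM, rises of 0.55 and 0.46, and Nop58 rose by 0.60 in RNA and 0.36 in footprints. Footprints of Ddx21, Mybbp1a, Nolc1, Pno1, Nop2, Rrs1, Rrp1b and Wdr12 rose by 0.39 to 0.92. Nop16 footprints, at 77.1 and 70.3 CPM, rose by 0.86 (adjusted p = 0.00254). Among the small subunit processome proteins none was called in footprints. RNA of 2 of them rose, Wdr43 by 0.91 (83.9 and 112 CPM, adjusted p = 0.00345) and Utp20 by 0.61 (262 and 268 CPM, adjusted p = 0.00591), with footprint changes of 0.37 and 0.25 that did not pass the test. RNA of Tsr1 and Wdr12 rose by 0.61 and 0.66, and Rrp1b had an RNA value of 0.73 that missed the threshold (adjusted p = 0.0634). The lowest values were an RNA log2 fold change of -0.45 for Imp3 (39.3 and 48.5 CPM, adjusted p = 0.204) and a footprint value of -0.26 for Noc3l (30.6 and 32.9 CPM, adjusted p = 0.571). For both genes, the 2 libraries lay below the 2 WT-shSCR replicates without passing the test, as 23.9% of all genes did in RNA and 25.2% in footprints. The next lowest were -0.12 for Gnl2 and -0.09 for Bop1 in RNA, and -0.19 for Ddx10 and -0.05 for Bms1 in footprints, none of them called.

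Of the 94 other ribosome biogenesis genes, footprints of 9 rose and none fell in the libraries labelled WT-shARF, and RNA of 5 rose and 2 fell. Of all genes tested, 5.63% were called higher and 5.5% lower in footprints, and 3.11% and 4.17% in RNA. Proliferation markers rose here too, 10 of 12 in RNA and 9 of 12 in footprints, and their part was not tested. The counts depended on single libraries. Without replicate 2 of the WT-shARF RNA 0 members passed edgeR's test, with 10 at an unadjusted p under 0.05, and 3 passed without WT-shARF RNA replicate 1 or WT-shSCR RNA replicate 1. The footprint count was 8 and 6 without WT-shARF footprint replicates 1 and 2. Scaling by library totals alone raised the median RNA change of all genes by 0.13 and gave 10 RNA calls, with 633 of all genes higher and 282 lower in place of 327 and 438. DESeq2 called 3 members in RNA and 9 in footprints.

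TE of no member was called in any comparison. After knockout the members had a median TE change of 0.07 on the log2 scale, against -0.04 for all genes tested, and 28 of 51 were above 0. At an unadjusted p under 0.05, TE of Tcof1 (0.57) and Nop16 (0.76) was higher and that of Nop58 (-0.56), Tsr1 (-0.54) and Wdr43 (-0.50) was lower, and DESeq2 called 0 members. Utp14a had a value of 0.56 that did not reach that level. In the same test 0.0884% of all genes were called higher and 0.106% lower. In the libraries labelled WT-shARF the median was 0.10, with 0.0354% of all genes called higher, Nhp2 at 0.90 (SE 0.26, adjusted p = 0.311) and Wdr43 at -0.54 (adjusted p = 0.73) were the values under an unadjusted 0.05, and DESeq2 called 0 there as well. The next highest were Gar1 (0.62) and Nop16 (0.50), and Noc3l (-0.61) and Utp18 (-0.50) were the other low values. The standard errors of the members' TE changes had a median of 0.26 in both comparisons. A change of this size in a single gene was not detectable, and larger values such as 0.76 for Nop16 were not called either. The interval of 2 SE ran from -0.46 to 0.20 for Ncl and from -0.45 to 0.62 for Dkc1 after knockout.

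Cytosolic ribosomal protein genes gave another picture in the same libraries. The list was drawn by symbol and included paralogs such as Rps27l and Rpl22l1. Of 78 genes tested, footprints of 76 rose after knockout while RNA of none rose and that of 1, Rps27l, fell. The TE changes of these genes were above 0 in 78 of 78, with a median of 0.47 and 5 called higher. Their RNA changes had a median of -0.00, where that of the 51 members was 0.38. In the libraries labelled WT-shARF their median TE change was 0.44, with 1 called higher, and their median RNA change was -0.08. A difference between the lists was not tested.

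**Figure D3:**
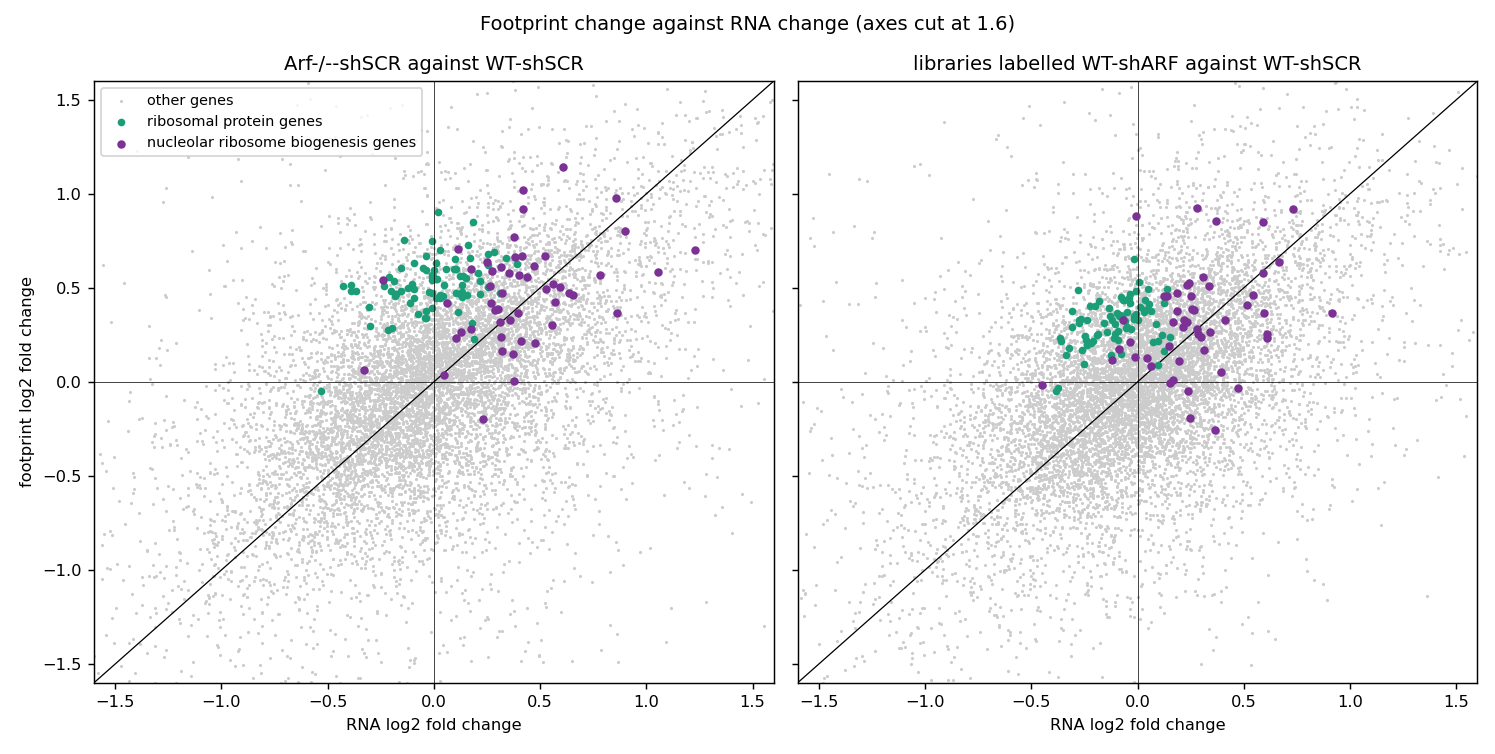
Footprint against RNA log2 fold change in Arf-/--shSCR (left) and in the libraries labelled WT-shARF (right), each against WT-shSCR, for the 51 members (purple), 78 ribosomal protein genes (green) and all other genes tested in both assays (grey), with the line of equal change and axes cut at 1.6. The members lie on both sides of the line, with median changes after knockout of 0.38 in RNA and 0.49 in footprints, and the ribosomal protein genes lie near 0 in RNA and at 0.51 in footprints.

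The level of TE varied widely among the members. This ratio sets 2 unlike assays side by side. Per the study's methods, footprints were made with RNase T1. HTSeq left out 79.2% to 81.4% of its total as not unique in RNA libraries and 46.3% to 52.9% in footprint libraries. The part of these in the differences between genes was not tested. In WT-shSCR the log2 ratio of footprint to RNA level had a median of 0.13 over the members and -0.07 over 11061 genes, with 33 of the 51 above the latter. Ncl had the highest ratio, 2.03, above 98.4% of all genes, followed by Rrs1 (1.21), Nop58 (1.20) and Gar1 (1.04). Noc2l and Rrp9 (both -1.13) and Nhp2 (-1.10) had the lowest. In Arf-/--shSCR these values were 1.96 for Ncl, 1.56 for Rrs1, 0.69 for Nop58, 1.53 for Gar1, -0.97 for Noc2l, -1.31 for Rrp9 and -0.58 for Nhp2. Levels also varied among proteins of 1 particle. The 4 H/ACA core proteins ran from -1.10 for Nhp2 to 1.04 for Gar1, and Nob1 (1.00) and Pno1 (0.88) lay above Rrp12 (-0.22) and Bysl (-0.24). The Gar1 value rests on only 21 and 28 RNA reads in WT-shSCR, 7.91 and 17.8 CPM.

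**Figure D4:**
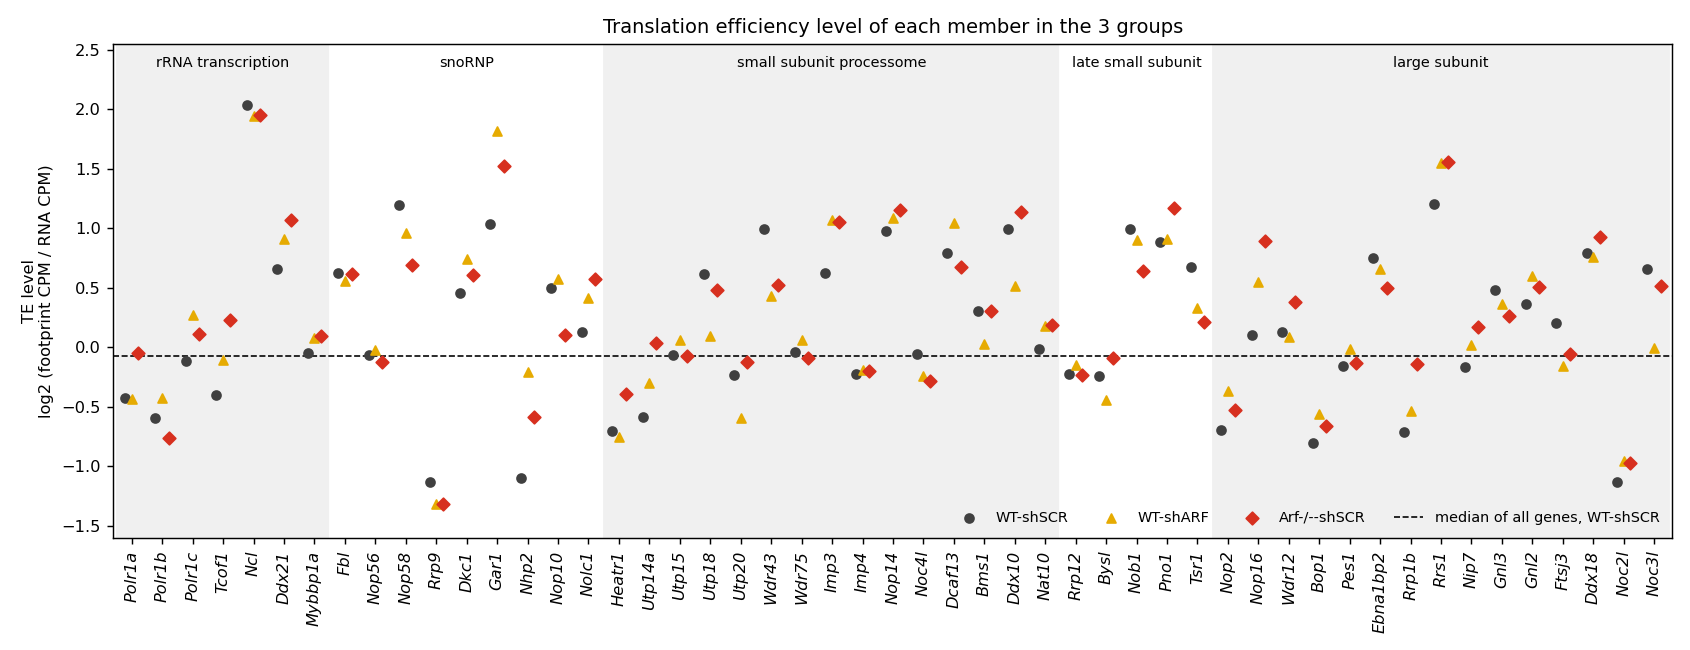
TE level of each member, as the log2 ratio of mean footprint CPM to mean RNA CPM, in WT-shSCR (circles), the libraries labelled WT-shARF (triangles) and Arf-/--shSCR (diamonds), grouped by role, with the WT-shSCR median of all genes as a dashed line at -0.07. Ncl is highest in all 3 groups, at 2.03, 1.94 and 1.96.

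Between Arf-/--shSCR and the libraries labelled WT-shARF, footprints of 5 members were higher and none lower, against 3.93% of all genes called higher and 4.3% lower. These were Tcof1 (0.54, adjusted p = 0.0179), Utp18 (0.50, adjusted p = 0.0381), Ncl (0.34, adjusted p = 0.000702), Nop58 (0.33, adjusted p = 0.0295) and Nop56 (0.31, adjusted p = 0.0381). RNA of 1 member, Nop58, was higher (0.62, adjusted p = 0.0423), against 1.38% of all genes called higher and 1.19% lower. TE of none was called, against 0.0172% of all genes called higher and 0.0258% lower, with 1 member, Utp20, at an unadjusted p under 0.05 and 0 called by DESeq2. Both knockout libraries lay above both libraries of the other group for 32 members in footprints (28.0% of all genes) and 23 in RNA (23.3%), and below them for 4 members in each assay (22.6% and 23.8% of all genes). Medians of the members were 0.15 in footprints and 0.14 in RNA. Nop16 and Wdr12 were among the 4 in both assays, with RNA log2 fold changes of -0.63 and -0.41, and neither passed the test. Without replicate 1 or replicate 2 of the WT-shARF libraries the counts were 0 in both assays, with 6 and 10 members at an unadjusted p under 0.05 in footprints and 3 and 6 in RNA. Footprint counts were 3 and 2 without replicates 1 and 2 of Arf-/--shSCR, and RNA counts 3 and 2, of which 1 was lower in each case. Scaling by library totals alone left 0 RNA calls among the members, with 143 of all genes higher and 237 lower in place of 147 and 126. DESeq2 called 3 members in footprints.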

How the data were processed

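RNA and footprint libraries of 3 groups of MEFs were analysed from the raw counts per gene that the authors deposited. Per the study's methods and the submitters' processing notes, the authors clipped adapters, extracted molecular identifiers with UMI-tools, trimmed barcodes with cutadapt, removed rRNA and noncoding RNA with Bowtie2, used TopHat for alignment to mm10, and ran HTSeq over the coding sequences. Removal of duplicates by molecular identifier was not stated. HTSeq leaves out alignments that are not unique, so reads shared with near-identical copies are lost. Pes1 overlaps a coding gene on the other strand.

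TMM factors and filterByExpr came from edgeR (version 4.0.16, under R 4.3.3), and the quasi-likelihood F test was fitted over 4 libraries for RNA or footprints and 8 for TE (interaction of assay and condition), with Benjamini-Hochberg adjustment over all genes. The study's tool, DESeq2 (1.42.0), was an alternative, with other scalings and filters, all groups in one fit, a replicate block and each library left out. The fits were tested on simulated data. Other tables used Python 3.11.15 and pandas 2.3.3. Genes were placed with GENCODE M21 (GRCm38), and 19809 of 20661 symbols matched directly. Values are given for called members, for the 3 largest rises and 3 largest falls of the members per comparison with WT-shSCR, and for members set as examples of each role. The members and lists were chosen with earlier results of these data known. Nop10 under the WT-shARF label, Utp14a footprints, the TE levels, other RNA values beside called footprints and the promoter letters were chosen for the text after values were seen.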

Additional observations from a re-analysis of the deposited data

How the results depend on the processing

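The direction of each called member held in every alternative. Of the counts of called members, DESeq2 gave 5 for RNA and 20 for footprints after knockout, 3 and 9 in the libraries labelled WT-shARF, and 3 for footprints of knockout against WT-shARF. Library totals alone gave 10 for RNA in WT-shARF, and 0 for RNA of knockout against WT-shARF. All groups in one fit gave 2 for footprints of knockout against WT-shARF. Leaving out single libraries gave 2 to 6 (RNA) and 0 to 20 (footprints) after knockout, 0 to 7 and 6 to 12 in WT-shARF, and 0 to 3 in both assays for knockout against WT-shARF. After the data were seen, DESeq2 was also run for footprints after knockout without each WT-shSCR library and gave 13 and 12, and a fit of all groups gave 22 in both cases. TE calls were 0 in all settings. The members' level of TE relative to all genes, 0.20, was 0.19 with library totals, a check chosen after the data were seen.

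Replicate numbers in the labels are not said to mark a shared culture. Deviations of equally numbered libraries correlated at -0.14 to 0.08 over genes with at least 30 counts, so the numbers were not taken to pair the libraries. A replicate block gave 7, 33, 7 and 14 calls for RNA and footprints after knockout and in WT-shARF, 0 for RNA and 7 for footprints of knockout against WT-shARF, and 0 for TE. Crossed numbers, chosen after the data were seen, gave 16 RNA calls after knockout and 4 for knockout against WT-shARF. The causes of these differences were not tested. With 2 libraries per group, median standard errors after knockout were 0.15 (footprints) and 0.21 (RNA), and changes well above 1 standard error were also left uncalled. Examples are footprint rises of 1.63-fold for Utp14a and 1.38-fold for Polr1b and an RNA rise of 1.55-fold for Utp18. A member that was not called may thus still have changed.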
